A study of Mus musculus with 8 samples.

Results

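CpG-rich probes are the 311 of 90752 non-control probes, 0.343%, whose 60-base sequence held 5 or more CpG, a C followed by a G. The rule that defines them uses sequence alone and no signals, but it was chosen with earlier results of these data known. They were compared with probes of 0 or 1 CpG (CpG-poor, 79525 probes) matched on base composition and brightness. CpG is rare in mammalian genomes, because a methylated C next to a G is prone to mutate to T. Dense CpG survives mainly in CpG islands, unmethylated stretches at the starts of many genes, and in some short RNAs such as microRNA hairpins, the folded precursors from which mature microRNAs are cut. A CpG-rich probe is also usually rich in G and C, which bind more tightly than A and T, so base composition has to be held level before CpG content itself can be compared.

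Jejunal total RNA was taken 2 weeks after surgery from male mice of the inbred strain C57BL/6, then 21 weeks of age. The mice began a high-fat diet at 6 weeks of age, and after 12 weeks 32 of 60 were diabetic. Randomisation sent 18 of these to DJB, which is bariatric surgery, and 14 to a Sham operation, so the diet and the diabetes were shared by both groups. Each group has 4 one-colour Cy3 arrays. The tissue label gives jejunum and the extraction protocol duodenum. The labels do not state that the arrays came from separate mice, so the spread behind the p-values is that of these samples alone and may be technical. No file links a probe to a gene, so the labelled tissue could not be checked against its markers. All DJB arrays lay on 1 slide and all Sham arrays on another, so surgery and slide cannot be told apart in any value below.

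The sequences below show what the class looks like, 5′ to 3′ as the files give them, with each CpG in capitals. The first 2 are the CpG-rich probes with the largest rise and the largest fall, each followed by its CpG-poor match. Then come the richest in GC of 3 tested probes that tie at 13 CpG, and a pair in which neither probe changed.
MOUSELNCRNA_37716 (largest rise, 5 CpG): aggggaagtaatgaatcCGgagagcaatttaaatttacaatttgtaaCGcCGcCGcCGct
MOUSELNCRNA_5615 (its match, 0 CpG): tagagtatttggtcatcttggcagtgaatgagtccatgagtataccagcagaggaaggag
MOUSELNCRNA_39163 (largest fall, 5 CpG): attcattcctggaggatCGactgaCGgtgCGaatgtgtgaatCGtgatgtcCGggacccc
MOUSELNCRNA_36361 (its match, 1 CpG): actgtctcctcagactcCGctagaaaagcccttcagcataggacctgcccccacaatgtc
MOUSELNCRNA_26812 (13 CpG): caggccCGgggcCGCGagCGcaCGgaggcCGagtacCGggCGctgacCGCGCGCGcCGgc
MOUSELNCRNA_25100 (unchanged, 5 CpG): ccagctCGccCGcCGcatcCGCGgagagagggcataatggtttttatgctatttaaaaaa
MOUSELNCRNA_16856 (its match, 0 CpG): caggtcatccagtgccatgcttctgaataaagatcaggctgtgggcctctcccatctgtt

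Of the 311 probes, 177 held 5 CpG, 69 held 6, 27 held 7 and 14 held 8, while 24 held more, up to 13. Their GC content ran from 35.0% to 86.67% with a median of 56.67%, against a median of 40.0% for the CpG-poor probes. Most were separate sequences. Sharing of 25 or more bases put them into 294 groups, of which 13 held 2 probes and 2 held 3.

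Not all CpG-rich probes gave a signal. A probe counted as kept where the scanner software called it well above background in 4 or more of the 8 hybridisations. Of the 311, 223 were kept, or 71.7% (exact binomial 95% interval 66.35 to 76.64, counting error only), against 64.7% of all probes. Most of the kept ones, 205, reached this level on all 8 arrays, and 18 on 4 to 7. A further 14 reached it on 1 to 3 arrays and 74 on 0. Held at the same GC content the order was the other way. Among the 207 CpG-rich probes whose GC content at least 20 CpG-poor probes share, 65.7% were kept, against 80.03% of CpG-poor probes weighted to that GC content. The lower share held on every array. It was 64.25%, 58.94%, 62.32% and 63.29% on DJB replicates 1 to 4, against 80.2%, 76.44%, 77.86% and 79.14% for the CpG-poor probes. On Sham replicates 1 to 4 it was 66.18%, 65.7%, 65.7% and 67.63%, against 79.59%, 78.91%, 78.94% and 82.92%. At the other GC contents, 83.65% of 104 CpG-rich probes were kept.

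All 223 kept probes were tested, with limma across all 58712 tested probes and adjustment over all of them. Levels are log2 signals relative to each array's 75th percentile, and a probe changed where its limma adjusted p was under 0.05. Of the 223, 72 were higher and 24 lower in DJB. Over all tested probes the background was 18.7% higher, 12.6% lower and 31.3% either way, and for the CpG-rich probes it was 32.29%, 10.76% and 43.05%. The median log2 fold change was 0.17 (quartiles -0.10 to 0.37), against 0.04 over all tested probes. The changes were mostly small: 3 rises and 1 fall reached 2-fold, and the median was 0.46 among the rises and -0.52 among the falls. All DJB arrays lay above all Sham arrays for 74 CpG-rich probes and below for 26, where the background for no overlap is 20.4% above and 13.9% below. The split between rises and falls depended on the scaling, with 50 higher and 40 lower when arrays were centred on their median. The number of falls moved with single arrays: 12 were found without DJB replicate 2, 14 without Sham replicate 1 and 13 without Sham replicate 4. The 72 rises came from 71 groups of separate sequence and the 24 falls from 20.

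A CpG-poor match within 2 points of GC content and in the same class of mean signal, of 10 equal classes, was found for 166 of the 223 CpG-rich probes. Median GC content was 55.0% in both members of the pairs. Once matched, rises were as many among the CpG-poor probes, and falls were fewer. In the CpG-rich probes 51 were higher (30.72%) and 24 lower (14.46%), and in their matches 52 were higher (31.33%) and 9 lower (5.42%). The median log2 fold change was 0.12 in the CpG-rich probes and 0.19 in the matches. The CpG-rich probe had the larger log2 fold change in 89 of 166 pairs, with a median difference of 0.018 within pairs (quartiles -0.40 to 0.25, extremes -1.71 and 1.95). The per-array medians given next are another statistic, with a pooled SD of 0.036 between arrays of one group. On that statistic DJB minus Sham was -0.031, opposite in sign, and its SD does not measure the error of 0.018.

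Array by array, the median of CpG-rich minus match, each probe taken relative to its mean over all arrays, was 0.05, -0.02, -0.05 and -0.03 in DJB replicates 1 to 4. In Sham replicates 1 to 4 it was 0.04, -0.01, 0.04 and -0.0002. The groups overlapped, with a DJB mean of -0.013 ± 0.044 (SD, n = 4) and a Sham mean of 0.018 ± 0.026 (SD, n = 4). Both kinds of probe taken alone parted the groups, and so did all tested probes together. The median over all tested probes was 0.0088 to 0.0322 on the DJB arrays and -0.0398 to -0.012 on the Sham arrays. Its sign depended on the scaling. With arrays centred on their median, the median log2 fold change was -0.0655 over all tested probes, 0.066 in the tested CpG-rich probes and 0.0857 in the matches. The median of the matched CpG-rich probes was 0.03 to 0.08 on the DJB arrays and -0.08 to -0.04 on the Sham arrays, and that of the CpG-poor matches 0.04 to 0.09 and -0.15 to -0.02.

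In the pairs, the calls of the 2 probes were largely separate. Both probes were higher in 19 pairs and both lower in 2. In 32 pairs only the CpG-rich probe was higher and in 29 only its match. In 18 pairs only the CpG-rich probe was lower, in 7 only its match, and neither changed in 55. A CpG-rich fall stood beside a CpG-poor rise in 4 pairs, and the reverse occurred in 0. The median absolute log2 fold change was 0.31 in the CpG-rich probes and 0.25 in the matches.

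Against all eligible CpG-poor probes, in place of a single match, the order of the falls was the same. For 180 CpG-rich probes at least 1 CpG-poor probe was eligible, and averaging all of them per probe gave 34.46% higher and 3.39% lower. The 180 CpG-rich probes themselves were 31.67% higher and 13.33% lower. The median difference of log2 fold change was then -0.045, and it was -0.14 with matches of 0 CpG, so its sign depended on the comparison probes.

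The balance of rises and falls among CpG-rich probes differed along GC content. Below 57% GC, 22 rose and 20 fell of 103, with a median log2 fold change of -0.02. From 57% to below 62%, 14 rose and 4 fell of 34, with a median of 0.20. At 62% or more, 36 rose and 0 fell of 86, with a median of 0.26. The falls lay between 41.67% and 60% GC, and the rises between 41.67% and 86.67%. At 62% or more a single fall appeared with arrays centred on their median, and 1 without DJB replicate 4, beside 23 and 31 rises. On negative control spots the log2 signal relative to the 75th percentile ran from -6.98 to -6.64 on the DJB slide and from -7.55 to -7.16 on the Sham slide. Their part in these values was not tested.

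Among CpG-poor probes rises were also more frequent at higher GC content, and falls were fewer than among CpG-rich ones in the middle range. Between 52% and 57% GC, 3.49% of 1348 CpG-poor probes fell, 3.95% of 506 with 2 CpG, 4.0% of 300 with 3 CpG, 9.38% of 128 with 4 CpG and 15.52% of 58 CpG-rich probes. Rises in that range went from 34.2% to 22.41% between the CpG-poor and the CpG-rich ends. Between 45% and 52% GC, falls were 8.26% of 15499 CpG-poor probes and 21.21% of 33 CpG-rich ones. At 57% to below 62% they were 0.769% of 130 and 11.76% of 34. From 62% to below 70%, there were 0 falls in either class, and rises were 38.46% of 39 CpG-poor and 36.67% of 30 CpG-rich probes. Within pairs, the median difference in log2 fold change, CpG-rich minus CpG-poor, was 0.02 in 45 pairs below 52% GC, -0.10 in 58 pairs between 52% and 57%, 0.0041 in 34 pairs between 57% and 62%, and 0.12 in 29 pairs at 62% or more, where the CpG-rich probe was the higher in 20.

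At the edge of the rule, probes of 4 CpG numbered 427 among those tested, with 23.19% higher, 11.48% lower and a median log2 fold change of 0.11. Probes of 5 CpG numbered 132, with 34.09% higher, 14.39% lower and a median of 0.12. Their median GC contents were 48.33% and 55.0%. Of 38 tested probes of 6 CpG, 21.05% were higher and 7.9% lower, and of 21 of 7 CpG, 19.05% and 9.52%. At the upper end, the 32 tested probes of 8 or more CpG had a median GC content of 78.33%, and 15 rose (46.88%) and 0 fell. Over all tested probes 18.7% were higher and 12.6% lower, so the share of rises did not climb steadily with CpG count.

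MOUSELNCRNA_37716, the largest rise, was -0.63, -0.63, -0.78 and -0.20 in DJB replicates 1 to 4 and -2.42, -2.69, -1.13 and -2.40 in Sham replicates 1 to 4. The groups did not overlap, and Sham replicate 3 lay nearest to the DJB arrays. The means were -0.56 ± 0.25 and -2.16 ± 0.70 (SD, n = 4), 3.04-fold apart. On the log2 scale the difference was 1.60 (SE 0.32, limma adjusted p = 0.00722). Its CpG-poor match MOUSELNCRNA_5615, in the same signal class and at the same 45% GC, went the other way without passing the threshold. It was -1.30, -1.42, -2.11 and -1.29 in DJB and -1.20, -1.22, -1.35 and -0.98 in Sham (log2 fold change -0.34, SE 0.18, limma adjusted p = 0.182).

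MOUSELNCRNA_39163, the largest fall, was -0.52, -0.45, -0.43 and -0.35 in DJB and 0.56, 1.02, 2.13 and 0.47 in Sham. The DJB arrays lay close together and below every Sham array, while the Sham arrays were spread out, with replicate 3 highest. The means were -0.44 ± 0.07 and 1.05 ± 0.76 (SD, n = 4), a log2 difference of -1.49 (SE 0.32, limma adjusted p = 0.0105). Its match MOUSELNCRNA_36361, at 55.0% GC too, was 0.52, 0.16, 0.42 and 0.56 in DJB and 0.14, 0.24, 0.18 and 0.30 in Sham, with overlapping groups (log2 fold change 0.20, SE 0.10, limma adjusted p = 0.152).

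MOUSELNCRNA_26812, with 13 CpG at 85.0% GC, was -3.70, -4.05, -4.00 and -3.75 in DJB and -4.29, -4.12, -4.16 and -4.46 in Sham. The groups did not overlap, but the gap was narrow. The log2 difference of 0.38 (SE 0.11, limma adjusted p = 0.0311) passed the threshold in 9 of 16 settings, with adjusted p from 0.0208 to 0.112. The other tested probes with 13 CpG, at 80.0% and 78.33% GC, did not pass the threshold, at log2 differences of 0.15 (SE 0.09, limma adjusted p = 0.233) and 0.20 (SE 0.15, limma adjusted p = 0.323). No CpG-poor probe could be matched to MOUSELNCRNA_26812. In the unchanged pair, MOUSELNCRNA_25100 was 2.18, 1.94, 1.83 and 1.67 in DJB and 2.02, 2.17, 1.79 and 1.59 in Sham. Its match MOUSELNCRNA_16856 was 2.16, 1.49, 1.83 and 2.08 in DJB and 1.93, 1.93, 1.74 and 2.00 in Sham. Both had overlapping groups and log2 fold changes of 0.01 and -0.0085 (limma adjusted p = 0.965 and 0.969).

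CpG-rich probes that overlap each other can bind the same RNA and do not count as independent. Of 11 groups with 2 or more tested probes, 10 had log2 fold changes of 1 sign. In 1 group all probes rose, in 3 groups all fell, in 3 only some passed the threshold, and in 4 none did. One group of 3 overlapping probes of 5, 5 and 6 CpG fell by 0.67, 0.80 and 0.73 on the log2 scale (limma adjusted p = 0.00311, 0.00209 and 0.00191). A pair of 5 and 7 CpG rose by 0.63 and 0.59 (limma adjusted p = 0.00117 and 0.00112). The largest difference within a group was 0.34.

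Few kept CpG-rich probes were undetected in a whole group. For 4 kept probes every Sham array but no DJB array (0 of 4) passed as well above background, so they have only a bound in DJB, and 1 of them passed the threshold. That probe, of 7 CpG, was at least 1.20-fold lower in DJB: its Sham mean of -4.31 was set against the higher of its own signal and the lowest signal well above background on each DJB array. Its measured DJB mean was -5.25 (limma adjusted p = 0.0441). For 0 probes was the reverse seen.

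The letters of the pairs differed in further ways, some of which follow from the CpG count that defines the 2 classes. The matched CpG-rich probes held a median of 7 TpG and CpA steps, the products of CpG mutation, against 10 in their matches, and 5 GpC steps against 4. The ratio of observed to expected CpG, set largely by the CpG count at matched GC content, had a median of 1.17 against 0.13. The letters CGCG, which read the same on both strands, occurred in 34.94% of the matched CpG-rich probes and in 0.825% of all probes. They hold 2 CpG, so the rule of 0 or 1 CpG bars them from every CpG-poor probe. The GC box letters GGGCGG or CCGCCC, one being the other's opposite strand, occurred in 9.04% of the matched CpG-rich probes. They occurred in 1.81% of the matches and in 0.33% of all probes. They hold 1 CpG, which 80 of the 166 matches lack. Of tested CpG-rich probes with CGCG, 28 rose and 9 fell of 94, and of those without it 44 rose and 15 fell of 129. The longest stretch by which a probe could pair with itself had a median of 6 bases in both.

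MicroRNA hairpins form a sizeable part of the class. Of the 311 CpG-rich probes, 50 (16.08%) shared at least 25 bases with a mouse hairpin in RefSeq (GRCm38.p6), all on the hairpin's own strand, and 45 of them lay wholly inside it. The share was 1.20% of all probes and 0.97% of CpG-poor probes. With GC content and signal held level it was higher on the CpG-poor side, at 19.88% of the matched CpG-poor and 8.43% of the matched CpG-rich probes. The table of 1005 hairpins gave 45 different ones. These probes were grouped after their values were seen. A probe inside a hairpin reports RNA that contains the precursor's sequence, not the mature microRNA.

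The probes with the largest rises and the only fall among the hairpins are shown with CpG in capitals and named by the RefSeq hairpin, together with the probe at the imprinted Dio3 region of chromosome 12.
Gm23450 (8 CpG): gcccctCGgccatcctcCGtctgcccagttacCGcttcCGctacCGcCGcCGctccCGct
Mir138-2 (5 CpG): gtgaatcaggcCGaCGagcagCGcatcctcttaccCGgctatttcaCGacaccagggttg
Mir5133 (6 CpG): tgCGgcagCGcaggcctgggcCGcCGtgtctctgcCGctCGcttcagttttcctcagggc
Mir1247 and Dio3os (9 CpG): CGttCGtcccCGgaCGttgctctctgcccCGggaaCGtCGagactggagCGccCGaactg
Mir219a-1 (7 CpG): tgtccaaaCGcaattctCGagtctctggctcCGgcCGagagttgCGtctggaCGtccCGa

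They lie at chr7:3415097-3415156 (plus strand), chr8:94324322-94324381 (plus), chr9:62122518-62122577 (minus), chr12:110278048-110278107 (minus) and chr17:34025009-34025068 (minus) of GRCm38.p6, in the order printed. The mature microRNAs that these probes contain whole are given next from RefSeq, with the seed, bases 2 to 8, in capitals; the seed is the stretch that pairs with target RNAs. No seed was shared between the 42 mature microRNAs of the tested hairpins, so 0 families could be formed.
mmu-miR-935 (in Gm23450): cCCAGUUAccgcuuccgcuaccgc
mmu-miR-138-2-3p: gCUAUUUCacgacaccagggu
mmu-miR-1247-3p: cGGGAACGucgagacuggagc
mmu-miR-219a-1-3p: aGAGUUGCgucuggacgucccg

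Of the 50 hairpin probes, 31 were kept and tested, and 17 rose and 1 fell. Their median log2 fold change was 0.31, against 0.14 for the 192 tested CpG-rich probes without a hairpin, of which 55 rose and 23 fell. The tested hairpin probes were also richer in GC, with a median of 70% and none under 58.33%, and among the 443 tested CpG-poor hairpin probes, at a median of 50% GC, 151 rose and 12 fell. The rises ran from 1.17-fold to 1.62-fold. Rises numbered 17 with quantile normalization, 12 after median centring and 20 with normexp background correction, with 1 fall in each. Leaving out 1 array gave 13 to 18 rises and 0 or 1 fall.

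The Gm23450 probe was 5.05, 5.09, 5.08 and 5.19 in DJB and 4.36, 4.50, 4.38 and 4.38 in Sham, so every DJB array lay well above every Sham array and the spread within groups was small. The log2 fold change was 0.70 (SE 0.07, limma adjusted p = 7.99e-04). It ran from 0.59 to 0.73 over 17 settings and passed the threshold in each of the 17.

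The Mir138-2 probe was -3.73, -4.07, -3.50 and -4.00 in DJB and -4.40, -4.81, -4.58 and -4.22 in Sham. The groups were apart, with DJB replicate 2 and Sham replicate 4 nearest to each other. The log2 fold change was 0.68 (SE 0.16, limma adjusted p = 0.0148), and over 17 settings it lay between 0.35 and 0.78. It passed the threshold in 16 of them and missed it in the deposited table (limma adjusted p = 0.0502). A second CpG-rich probe that shares 59 bases with the hairpin, on 7 arrays above background, differed by 0.36 without passing the threshold (SE 0.16, limma adjusted p = 0.115).

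The Mir5133 probe was -0.63, -0.72, -0.75 and -0.55 in DJB and -1.29, -1.08, -1.15 and -1.22 in Sham, with no overlap (log2 fold change 0.52, SE 0.08, limma adjusted p = 0.00256). Mir219a-1 makes a microRNA known from the brain. Its probe was -1.13, -1.37, -1.16 and -1.27 in DJB and -1.06, -0.73, -0.84 and -0.96 in Sham, lower on every DJB array. The log2 fold change was -0.33 (SE 0.09, limma adjusted p = 0.0267), and it passed in 10 of 16 settings. The opposite strand of the same site carries the hairpin Mir219c, whose own CpG-rich probe passed the background limit on 0 of 8 arrays.

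Other hairpin probes that rose included Mir7677 by 0.51, Mir770 by 0.48, Mir1199 by 0.42 and Mir149 by 0.40 on the log2 scale (limma adjusted p = 0.00433, 0.0284, 0.0101 and 0.00681). The Mir770 probe passed in 10 of 17 settings; it missed the threshold with the replicate block (limma adjusted p = 0.0604) and without DJB replicate 1, 2 or 4 or Sham replicate 1, 2 or 4 (limma adjusted p up to 0.0679). Mir339 rose by 0.23 (limma adjusted p = 0.0309) and passed in 9 of 16 settings. The 13 that did not pass ranged from -0.04 to 0.36. Among them was Mir210, whose microRNA is induced by low oxygen, at 0.11 (SE 0.26, limma adjusted p = 0.771), and Mir92b at 0.07 (SE 0.10, limma adjusted p = 0.628).

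Mir375 makes a microRNA that is abundant in endocrine cells of the gut and pancreas. Its tested probe shares 54 bases with the hairpin at chr1:74900658-74900711, and was -2.52, -2.76, -2.77 and -2.68 in DJB and -2.98, -2.81, -2.90 and -3.01 in Sham. All DJB arrays lay above all Sham arrays, with DJB replicate 3 and Sham replicate 2 nearly level. The log2 difference of 0.24 (SE 0.08, limma adjusted p = 0.0542) missed the threshold and passed in 2 of 17 settings. The second Mir375 probe, with 9 CpG, was well above background on only 3 of 8 arrays and was not tested.

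The 19 hairpin probes that were not kept had a median GC content of 58.33%, and 15 of them were above background on 0 arrays. They included Mir126a, a microRNA gene of blood vessel endothelium, both probes of Mir137, known from neurons, and Mir99a. Some hairpin probes lie close together on chromosome 12. Of the 50 hairpin probes, 7 lie between 109563726 and 109738498 in the imprinted Dlk1-Dio3 region, a large microRNA cluster active mainly in the embryo and the brain. Those of Mir154, Mir323, Mir411, Mir431 and both of Mir543, 6 in all, were above background on 0 arrays, and that of Mir770 was on all 8. The 6 had GC contents from 41.67% to 58.33%, and the Mir770 probe had 71.67%. No hairpin probe under 58.33% GC was kept on any chromosome. The Mir1247 probe, past this block at 110278048 and with 68.33% GC, was above background on all 8 arrays. The part of GC content was not tested.

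Gene starts were the other annotation searched, and the genes named at them were also chosen after their values were seen. RefSeq promoter windows (GRCm38.p6) run from 250 bases before to 50 bases after a start. Of the 311 CpG-rich probes, 41 (13.18%) shared at least 25 bases with such a window, on either strand, against 3.27% of all probes, 3.17% of CpG-poor probes and 6.81% of probes of 4 CpG. Among probes of 8 or more CpG it was 21.05%. In the pairs, matched on GC content, the shares were 12.05% of the CpG-rich and 9.64% of the CpG-poor probes, or 20 and 16 of 166. Of the 41 probes, 24 read along the strand of a gene and 22 against one, with some doing both, and 33 lay at protein-coding genes.

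Of the 27 promoter probes that were tested, 11 rose (40.74%) and 0 fell, against 61 and 24 of the 196 others. Over all tested probes 18.7% rose and 12.6% fell. Of all 2630 tested probes with a window, whatever their CpG count, 10.34% rose and 4.87% fell. At 52% GC or more, 226 of these had 33.19% higher and only 2.21% lower. Among the 27, falls appeared under other scalings. There was 1 with quantile normalization, 1 with normexp background correction and 3 after median centring, beside 10, 13 and 6 rises. Without DJB replicate 1 there was 1 fall. Without Sham replicate 1, 7 rose. The rises were concentrated at high GC content: 9 of 14 probes at 62% or more, and 2 of 13 below it. At 62% or more, 27 of 72 probes without a window rose. Of the 11 that rose, 4 also lie in a hairpin and 7 read against a protein-coding gene.

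The probe at Dio3os, the antisense RNA next to the gene of the thyroid hormone-inactivating enzyme Dio3, is the Mir1247 probe printed above. The probe lies with all 60 bases in the hairpin and in the Dio3os promoter window. It spans positions -39 to 21 relative to the Dio3os start, so part of it lies before the start. It was 0.37, 0.29, 0.38 and 0.22 in DJB and -0.07, 0.0024, -0.12 and -0.07 in Sham. Every DJB array was higher, by 0.38 on the log2 scale (SE 0.07, limma adjusted p = 0.00482), which passed in 16 of 16 settings.

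The largest rise at a gene start was on the strand opposite to Fbxo7, which encodes an F-box subunit of ubiquitin ligases. The probe covers chr10:86021780-86021839, positions -149 to -90 relative to the start:
Fbxo7, opposite strand (8 CpG): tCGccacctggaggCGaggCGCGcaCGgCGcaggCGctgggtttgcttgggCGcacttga

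It was -3.73, -3.56, -3.93 and -3.78 in DJB and -4.21, -4.36, -5.05 and -4.61 in Sham, near the detection limit, and it was above background on 7 of 8 arrays. The groups did not overlap, and the Sham arrays were the more spread out. The log2 fold change was 0.81 (SE 0.18, limma adjusted p = 0.0106), from 0.36 to 0.93 over 16 settings, and it was past the threshold in each.

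Hoxa11 encodes a homeobox transcription factor of limb and reproductive tract development. A probe that shares 43 bases with its window on the opposite strand, at chr6:52246018-52246060, was -3.48, -3.36, -3.38 and -3.42 in DJB and -3.86, -3.91, -3.96 and -3.80 in Sham. Both groups were tight and apart, and the log2 fold change was 0.47 (SE 0.07, limma adjusted p = 0.00212). Pitpnb, a phosphatidylinositol transfer protein, had an opposite-strand probe that rose by 0.43 (SE 0.10, limma adjusted p = 0.0143).

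A further probe lies inside Mir8109 and opposite to Neto2, an auxiliary subunit of kainate receptors, at chr8:85700962-85701021. It holds 11 CpG:
Mir8109, opposite to Neto2: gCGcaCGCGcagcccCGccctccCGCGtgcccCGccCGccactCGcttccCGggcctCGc

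It was 6.39, 6.22, 6.32 and 6.31 in DJB and 5.87, 6.08, 5.95 and 6.09 in Sham, without overlap (log2 fold change 0.31, SE 0.08, limma adjusted p = 0.0174), and it passed in 13 of 16 settings. On the same strand as their genes, the probes at Dnaja1, a co-chaperone of Hsp70, and Kif1b, a kinesin motor, rose by 0.41 and 0.28 (limma adjusted p = 0.0123 and 0.0176). The Dnaja1 probe also lies in Mir207 and opposite to the noncoding gene Gm6297.

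The 16 tested promoter probes that did not pass ranged widely around 0. Those at Cdk9, the kinase of the elongation factor P-TEFb, at Snrpd3, a core protein of splicing particles, at Brd2, a bromodomain protein, and at Irak1, a kinase of interleukin-1 signalling, had log2 fold changes of -0.03, 0.21, -0.06 and 0.26 (limma adjusted p = 0.859, 0.179, 0.763 and 0.149). The lowest value was -0.31 at Mfsd11 (limma adjusted p = 0.163) on 5 arrays above background. The Cdk9 and Irak1 probes are also those of the hairpins Mir2861 and Mir718, already counted among the hairpin probes. The Cdk9 probe lies before the start, at positions -82 to -23, and the Irak1 probe was above background on 6 arrays. The Snrpd3 probe also lies opposite to Gucd1. The 172 tested CpG-rich probes with neither a hairpin nor a window had 48 rises and 23 falls. All but 1 of the falls thus lay outside both annotations. The falls lay only between 41.67% and 60% GC, a range that the annotated probes covered in part. No tested hairpin probe lay under 58.33% GC, and 13 of the 27 tested promoter probes lay below 62%. The part of GC content in this split was not tested.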

How the data were processed

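The sample titles gave the groups and replicate numbers. Per the file headers, the scanner files hold an intensity for each spot, which the authors extracted with Agilent Feature Extraction, version 10.7 per the submitters' processing notes, which also name limma. Its processed signals, linear and corrected for background, were used. The authors also deposited a series table of log2 values for 65478 non-control probes, 222 of them CpG-rich; what was done to them is not given in the sources used here. Its column medians were 6.21 to 6.23, and its columns matched quantile-normalized scanner signals across probes (Pearson's r from 0.997 to 0.999), so it served as an alternative.

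Processed signals were put on the log2 scale and centred per array on the 75th percentile of non-control spots. Outlier spots (151 to 310 per DJB array, 58 to 102 per Sham array, of 176026) were left out, 0 were saturated, and spots of a probe were averaged. limma 3.58.1 (lmFit, eBayes) in R 4.3.3 was fitted to all kept probes without covariates, with Benjamini-Hochberg adjustment over all 58712 tested; 0.05 was the threshold. The fit was tested on simulated data. Each CpG-rich probe, from the highest GC content down, took the free CpG-poor probe nearest in mean signal. Probes were matched to RefSeq tables by exact runs of 25 bases on either strand, in Python 3.11.15. Precision is limited by having 4 arrays per group. No arrays held the same values. Named probes are those with the largest rise and fall among 83 changed CpG-rich probes whose groups did not overlap and that were above background on all 8 arrays, of 3 tied at 13 CpG the one highest in GC content, an unchanged pair nearest the median difference, and their matches. CpG-rich probes, lists and tests were chosen with earlier results of these data known.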

Additional observations from a re-analysis of the deposited data

Results flagged for a closer look

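Dixon's test at the 95% level was applied to 76 sets of 4 arrays, and chance marks about 1 in 20 such sets. The sets included those of probes named above, of other annotated probes and summaries over CpG-rich probes. The test marked 3. The CpG-poor match of the largest rise, MOUSELNCRNA_5615, was -2.11 in DJB replicate 3, below the other DJB arrays at -1.42 to -1.29. A CpG-rich probe not named above, opposite to the gene starts of Gm40847 and Gm40862, was -3.07 in Sham replicate 4. The other Sham arrays were at -2.88 to -2.87. The Gm23450 probe was 4.50 in Sham replicate 2, above the other Sham arrays at 4.36 to 4.38, and still below all DJB arrays.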

How the results depend on the processing

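Counted over the same pairs, falls were more numerous among the CpG-rich probes than among their matches in 22 of 22 settings, with 7 to 40 against 4 to 20; the narrowest gap was 7 against 6 of 166, at an adjusted p under 0.01. In the counts that follow, CpG-rich probes are all those tested (223 unless the setting changes the filter or table) and matches are those in pairs (166 likewise). Centring arrays on their median gave 40 CpG-rich and 20 matched falls. In the deposited table, which holds 156 of the kept CpG-rich probes and 85 pairs, 43 CpG-rich and 21 matched probes were higher, and the median difference in pairs was 0.067. At an adjusted p under 0.01, 34 of 223 CpG-rich probes were higher and 7 lower, and 26 of 166 matches were higher and 6 lower. Requiring all 8 arrays above background left 65.92% of CpG-rich probes and 5 matched falls, and the same GC content exactly gave 4 matched falls. The median difference was -0.14 with matches of 0 CpG, -0.034 with members of 4 or more CpG and -0.045 with every eligible CpG-poor probe averaged. Leaving out 1 array gave, of 223 and 166, 52 to 70 CpG-rich rises, 12 to 27 CpG-rich falls, 38 to 48 matched rises, 7 to 13 matched falls, median differences of -0.014 to 0.034 and 69.77% to 71.38% kept. The cause of these changes was not tested, except that the deposited table and the stricter filter hold fewer probes.

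With the replicate number as a block, 60 of 223 CpG-rich probes were higher and 26 lower, 41 of 166 matches were higher and 11 lower, and the median difference was 0.018. Deviations of same-numbered arrays correlated at 0.15, 0.11, -0.04 and 0.11 for replicates 1 to 4. Those of different-numbered arrays correlated at -0.14 to 0.14. All were weak, and these values cannot settle whether the numbers pair the samples. The numbers were not taken to pair them, and the block is given as an alternative. With 57 CpG-rich probes unmatched, mostly of high GC content, the comparison covers little above 70% GC.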
